A study of Homo sapiens with 12 samples.

Results

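The results below concern how the first 40 min of epidermal growth factor (EGF) changed RNA levels in HCC70 cells with an shRNA against LAD1, set against the same change in cells with a scramble shRNA. For each gene the 40 min change in log2(normalized count + 1) was taken within prefix o and within prefix s of the library names, and the change in scramble cells was subtracted from that in shLAD1 cells. This value is called the response difference. It uses the 8 libraries at 0 and 40 min of the 12 in the series, 2 in each of 4 groups: shLAD1 cells at 40 and 0 min, and scramble cells at 40 and 0 min. In each pair of values the one from prefix o (replicate 1) stands before the one from prefix s (replicate 2).

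HCC70 is an established line from a human breast carcinoma of the triple-negative, basal-like kind. All groups were cells that stably carried an shRNA and had been kept overnight without serum. The 40 min groups then received 50 ng/ml of EGF and the 0 min groups none. Poly-A RNA was sequenced. The labels name no other shRNA against LAD1 and do not say whether the cells were pools or clones, so an effect of LAD1 loss and another effect of this shRNA or of these cells cannot be told apart. No library without EGF was taken at 40 min, so EGF and the time since 0 min cannot be told apart either. The series title presents LAD1 as a filamin-binding protein that acts on actin in EGF-treated cells.

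EGF binds its receptor EGFR, which starts the RAS and ERK kinase cascade. Within minutes this cascade activates transcription factors already present in the cell, and they switch on immediate early genes such as FOS and EGR1 without new protein synthesis. Those genes encode further transcription factors, secreted cytokines and growth factors, and the phosphatases and adaptors that later damp the signal.

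The 12 libraries held 12428618 to 16721013 reads each. The scramble 40 min libraries were the deepest, with 16721013 and 16011936 reads, against 12428618 to 13688119 in the other 6 libraries compared. LAD1 RNA had 1181 and 971 normalized counts in shLAD1 cells and 5808 and 6522 in scramble cells at 40 min, and 1092 and 865 in shLAD1 cells against 5925 and 6406 in scramble cells at 0 min. LAD1 itself had a response difference of 0.14 in prefix o and 0.14 in prefix s (adjusted p = 1). All 13 basal markers reached 10 normalized counts, with KRT5 at 39620 to 78200 and TP63 at 15.4 to 34.5. Of 12 luminal markers 10 did. KRT19 lay between 28880 and 51330, KRT8 between 7463 and 20330 and GATA3 between 1198 and 1709. TFF3 was at 0 in every library, PGR stayed at or below 1.03 and ESR1 lay between 18.0 and 29.0. Of 10 stromal markers 3 reached 10 normalized counts in 2 libraries (COL1A1, at 243 to 895, with PDGFRA and ACTA2), and DCN was at 0. Of 10 blood and endothelial markers 4 did, with CD68 at 741 to 1577, and HBB was at 0. Summed stromal markers were higher in shLAD1 cells, between 749.2 and 929 normalized counts against 362 and 474 in scramble cells at 40 min, and between 684 and 836 against 332 and 401 at 0 min. Summed blood and endothelial markers were higher too, between 1121 and 1528 against 755 and 812 at 40 min, and between 1325 and 1457 against 766 and 899.5 at 0 min. The stromal sum was mostly COL1A1, and the blood and endothelial sum mostly CD68, so each follows 1 gene. COL1A2, COL3A1, PDGFRB, THY1, LUM and FAP stayed at or below 3.08, and PTPRC, CD3E, CD79A, LYZ and HBA1 at or below 3.14. The part of the stromal, blood and endothelial markers in the results was not tested.

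The response differed with the shRNA for 11 of 13950 genes tested (0.0789%), with a response difference above 0 for 10 (0.0717%) and below 0 for 1 (0.00717%). A value above 0 means a higher signed change in shLAD1 cells and not always a larger one. MT1G and MT1X changed more in scramble cells, where they fell, and CSRP1 moved in opposite directions. The calls come from the limma-trend fit on log2(normalized count + 1) in which every change is taken within a prefix, at a Benjamini-Hochberg adjusted p under 0.05. In it 590 genes had an unadjusted p under 0.05. The calls rest on that pairing. Without it limma called 0 genes, with 99 at an unadjusted p under 0.05, and with the replicate number alone as a block it called 0, with 214. Paired fits on the reads recovered from the table gave 21 calls with edgeR (0.151%), 11 with a response difference above 0 (0.0789%) and 10 below 0 (0.0717%). Leaving out shLAD1 40 min replicate 2 gave 16 and 26 in limma. DESeq2 called 11 genes, of which 8 were among the 11 of limma; SLC20A1 (adjusted p = 0.0948), LPIN1 (adjusted p = 0.309) and MAFF were not. The excess of response differences above 0 thus held in some fits and not in others. Without pairing edgeR called 0 genes, with 107 at an unadjusted p under 0.05. The labels do not say that the replicates are separate cultures, so p-values measure only the spread between these libraries, which may be technical. In limma the spread of a gene is drawn toward that of other genes over all 12 libraries. Its SEs and p-values thus rest only in part on the gene's own replicates. With 2 against 2, an exact permutation test of a single gene can reach no p below 0.333.

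Each shRNA on its own showed a broad early response. In shLAD1 cells 4.77% of genes changed by 40 min, of which 561 rose (4.02%) and 105 fell (0.753%). In scramble cells 3.8% changed, of which 444 rose (3.18%) and 86 fell (0.616%). Scaling by total reads instead moved these splits to 435 higher and 364 lower in shLAD1 cells, and to 360 higher and 166 lower in scramble cells. The genes called for a response difference were few beside these. They are described in sets by their level at 0 min, with the metallothioneins apart. For LIF, CXCL8, IER3, MAFF and LPIN1 both shLAD1 libraries were lower before EGF. For SIK1, SLC20A1, CSRP1 and ALYREF the 0 min difference was smaller in size than the 40 min difference. The metallothioneins MT1X and MT1G fell in scramble cells, and MT1G too was lower in both shLAD1 libraries before EGF.

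**Figure D1:**
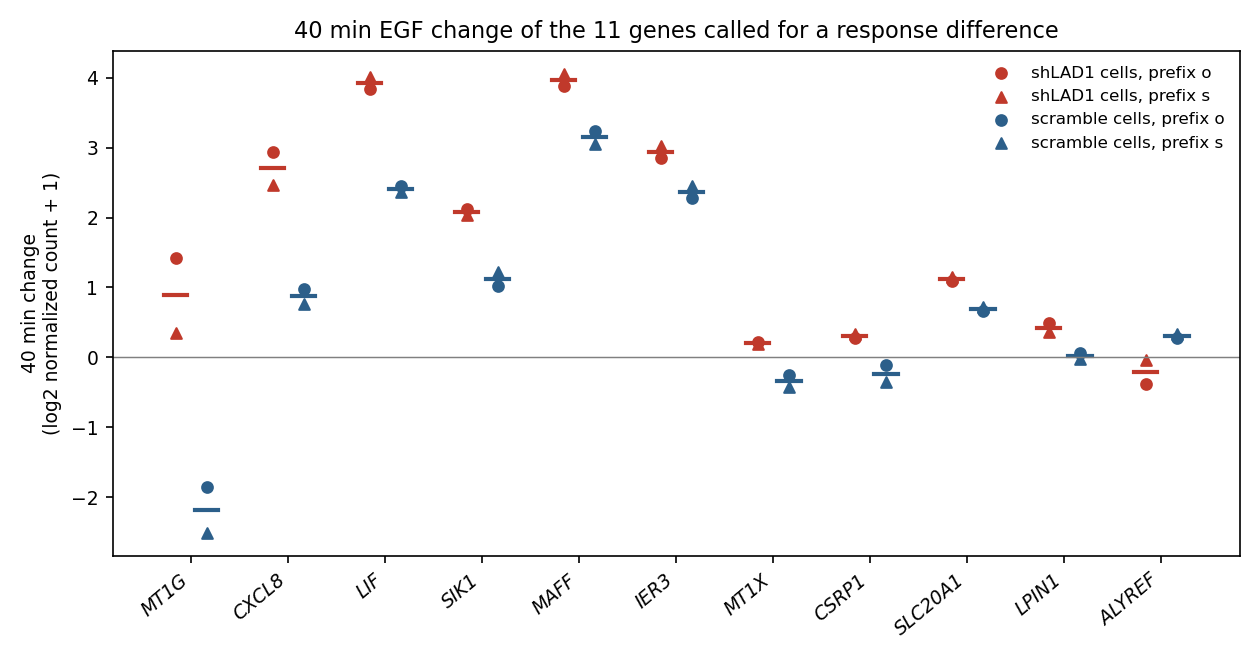
The 40 min change of the 11 genes called for a response difference, in log2(normalized count + 1), with shLAD1 cells (red) left of scramble cells (blue). Circles are prefix o, triangles prefix s and bars the mean of the pair. The values of the 2 shRNAs overlap for none of the 11, which their choice by the same values favours (34.9% of all genes tested do not overlap). LIF and CXCL8 rose under both shRNAs, and MT1G and MT1X lie below 0 in scramble cells only.

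LIF, a cytokine of the interleukin-6 family, had the smallest adjusted p. In shLAD1 cells it had 690.3 and 1077 normalized counts at 40 min and 47.2 and 66.2 at 0 min. In scramble cells it had 739 and 773 at 40 min and 135 and 149 at 0 min. LIF was thus lower in both shLAD1 libraries at 0 min, while at 40 min the shLAD1 values lay on either side of the scramble values. It rose by 3.92 ± 0.10 in shLAD1 cells and by 2.41 ± 0.10 in scramble cells, a response difference of 1.52 ± 0.14 (SE, n = 2 per group; adjusted p = 6.2e-06), with 1.39 in prefix o and 1.64 in prefix s. The call was kept without any 1 of the 8 libraries. In these bulk samples, fewer cells making an RNA and less of it per cell cannot be told apart. LIF shares exon sequence with LIF-AS1 on the other strand, and the use of strand in counting is not given in the sources used here.

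CXCL8, the neutrophil chemokine interleukin-8, was lower in shLAD1 cells at both times. In shLAD1 cells it had 140.0 and 174 normalized counts at 40 min and 17.5 and 30.5 at 0 min. In scramble cells it had 236 and 186 at 40 min and 119 and 109 at 0 min. Both shLAD1 values were below both scramble values at each time, and the distance was smaller at 40 min. CXCL8 rose by 2.70 in shLAD1 cells and by 0.87 in scramble cells, a response difference of 1.83 ± 0.24 (adjusted p = 0.00146). Its starved level was called lower in shLAD1 cells, at -2.25 (adjusted p = 0.0345, limma with a mean per group), and its 40 min level was not, at -0.42 (adjusted p = 0.659). Without scramble 0 min replicate 2, shLAD1 0 min replicate 1 or shLAD1 0 min replicate 2 the response difference was no longer called, at 1.75, 1.85 and 1.81.

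The 250 bases before the CXCL8 start are shown because CXCL8 is a classical target of AP-1, whose FOS and JUN subunits are themselves immediate early genes. They come from RefSeq, GRCh38.p14 chr4:73740319-73740568, plus strand. Capitals mark the AP-1 motif TGANTCA, 137 bases before the start, the motif TGACG of cAMP response elements, here on the other strand 179 bases before the start, and the metal response core TGCACNC, on the other strand 61 bases before the start.
CXCL8: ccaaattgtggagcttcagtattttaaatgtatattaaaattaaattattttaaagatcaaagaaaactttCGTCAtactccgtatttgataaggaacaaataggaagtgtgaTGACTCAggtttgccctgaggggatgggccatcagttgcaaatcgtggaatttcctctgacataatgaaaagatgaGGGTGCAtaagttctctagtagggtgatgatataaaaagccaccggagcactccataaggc
Both strands were searched. Of 35114 promoters of this length 6.57% hold TGANTCA, 21.2% TGACG and 9.87% TGCACNC. An NF-kB motif, searched in a strict form that 5.21% of promoters hold, had 0 matches here. Sites that depart from that form would be missed, so the presence of an NF-kB site was not settled. The match is a description of the sequence and not a shown binding site. The RefSeq promoter table matched 8 of the 11 called genes by symbol.

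IER3, an immediate early gene that modulates cell death, had 4564 and 7451 normalized counts at 40 min and 634 and 918 at 0 min in shLAD1 cells. It had 7360 and 7192 at 40 min and 1518 and 1310 at 0 min in scramble cells. The shLAD1 libraries were both lower at 0 min and overlapped scramble at 40 min, where prefix o alone was low. The response difference was 0.57 ± 0.07 (adjusted p = 0.000643), 0.57 in prefix o and 0.56 in prefix s, and kept its call without any 1 library. IER3 shares exon sequence with IER3-AS1 on the other strand.

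MAFF, a small MAF transcription factor, had 933 and 914 normalized counts at 40 min and 62.6 and 53.9 at 0 min in shLAD1 cells. In scramble cells it had 820.2 and 708 at 40 min and 85.9 and 84.3 at 0 min. The shLAD1 libraries were thus the lower pair at 0 min and the higher pair at 40 min. Its response difference of 0.82 ± 0.15 (adjusted p = 0.0355) was not called by edgeR (adjusted p = 0.178) or DESeq2 (adjusted p = 0.437), and of the 8 fits that leave out a library only that without scramble 0 min replicate 1 kept it. The related MAFK and MAFG had response differences of 0.13 and -0.07.

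LPIN1, which encodes the phosphatidate phosphatase lipin-1, was lower in shLAD1 cells at both times. It had 1132 and 1066 normalized counts at 40 min and 805 and 831 at 0 min in shLAD1 cells, against 1663 and 1693 at 40 min and 1599 and 1725 at 0 min in scramble cells. The groups of the 2 shRNAs did not overlap at either time. LPIN1 rose by 0.42 in shLAD1 cells and changed by 0.01 in scramble cells, which was not called (adjusted p = 0.965). Its level difference was -1.02 at 0 min (adjusted p = 0.00108) and -0.61 at 40 min (adjusted p = 0.00922), and the response difference 0.41 ± 0.08 (adjusted p = 0.0352). Of the 8 fits that leave out a library, that without shLAD1 40 min replicate 2 kept the call, and DESeq2 did not make it (adjusted p = 0.309).

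SIK1, a salt-inducible kinase that restrains CREB-dependent transcription, started from like levels. It had 729.8 and 634 normalized counts at 40 min and 166 and 154 at 0 min in shLAD1 cells. In scramble cells it had 385 and 326 at 40 min and 188 and 139.8 at 0 min. The groups overlapped at 0 min, and at 40 min both shLAD1 libraries were above both scramble libraries. SIK1 rose by 2.08 in shLAD1 cells and by 1.12 in scramble cells, a response difference of 0.96 ± 0.18 (adjusted p = 0.0415), and its 40 min level was called higher in shLAD1 cells, by 0.94 (adjusted p = 0.0294). The response difference was past the threshold in edgeR (adjusted p = 0.017) and just outside it without the filter on low values (0.0591), with a filter at 50 (0.0581) and with total-count scaling (0.052). It lost its call in 6 of the 8 fits without a library, with values of 0.75 to 1.17 over all 8. The kinases SIK2 and SIK3 had 0.15 and 0.08.

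The promoter of SIK1 is shown because this gene is a classical target of CREB. The 250 bases are GRCh38.p14 chr21:43427132-43427381, minus strand, from RefSeq, and capitals mark 3 copies of TGACG, all read on the other strand as CGTCA.
SIK1: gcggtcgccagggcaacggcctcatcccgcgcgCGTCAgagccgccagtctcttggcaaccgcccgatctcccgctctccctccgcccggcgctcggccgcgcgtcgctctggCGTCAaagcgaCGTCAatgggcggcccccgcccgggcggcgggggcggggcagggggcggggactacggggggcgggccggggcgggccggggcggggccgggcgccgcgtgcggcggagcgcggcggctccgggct
The longer element TGACGTCA, which holds TGACG on both strands and occurs in 1.65% of promoters, was not among these letters, nor were TGANTCA, the CArG box or the NF-kB motif. Among the other called genes with a matched promoter, MAFF and ALYREF held 2 copies of TGACG each, and CXCL8 and SLC20A1 held 1 each. MAFF also held TGACGTCA.

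SLC20A1, a sodium-dependent phosphate transporter, had nearly equal values in the 2 prefixes. There were 2293 and 2290.5 normalized counts at 40 min and 1075 and 1031 at 0 min in shLAD1 cells, against 1632 and 1641 at 40 min and 1033 and 997 at 0 min in scramble cells. The 0 min levels differed by 0.05 on the log2 scale and were not called, and the 40 min levels were called, higher in shLAD1 cells by 0.49 (adjusted p = 0.0101). The response difference was 0.43 in prefix o and 0.43 in prefix s, with an SE of 0.07 (adjusted p = 0.0101), and was called in 2 of the 8 fits that leave out a library and not by DESeq2 (adjusted p = 0.0948). The paralogue SLC20A2 had 0.00076.

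CSRP1, a LIM-domain protein of the actin cytoskeleton, moved in opposite directions under the 2 shRNAs. It had 2944 and 1812 normalized counts at 40 min and 2423 and 1443 at 0 min in shLAD1 cells, and 1724 and 1185 at 40 min and 1859 and 1517 at 0 min in scramble cells. At 0 min the shLAD1 minus scramble difference was 0.38 in prefix o and -0.07 in prefix s. Within each prefix the level was higher at 40 min in shLAD1 cells and lower at 40 min in scramble cells, on changes smaller than the distance between prefixes. CSRP1 rose by 0.30 in shLAD1 cells (adjusted p = 0.000633) and fell by 0.23 on the log2 scale in scramble cells (adjusted p = 0.0125), with a response difference of 0.54 ± 0.08 (adjusted p = 0.00146). Without scramble 0 min replicate 2 it was 0.42 (adjusted p = 0.0904) and without scramble 40 min replicate 2 it was 0.47 (adjusted p = 0.083).

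ALYREF, an adaptor for mRNA export, was the called gene with a response difference below 0. Its normalized counts were 1267 and 1628 at 40 min and 1657 and 1669 at 0 min in shLAD1 cells, and 1925 and 1996 at 40 min and 1592 and 1582 at 0 min in scramble cells. The 40 min shLAD1 values lay below the 40 min scramble values, mostly through prefix o. ALYREF rose by 0.30 in scramble cells (adjusted p = 0.00484), and its change of -0.21 in shLAD1 cells was not called (adjusted p = 0.0611). The response difference was -0.52 ± 0.09 (adjusted p = 0.0204), and 2 of 8 fits that leave out a library kept it. It overlaps ANAPC11 on the other strand by 62 bases of exon.

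Metallothioneins, small proteins that bind zinc and copper, made a set of their own. MT1X had 1002 and 2087 normalized counts at 40 min and 859 and 1832 at 0 min in shLAD1 cells, against 1036 and 1385 at 40 min and 1237 and 1863 at 0 min in scramble cells. It fell by 0.34 on the log2 scale in scramble cells (adjusted p = 0.000858), its change of 0.20 in shLAD1 cells was not called (adjusted p = 0.0584), and the response difference was 0.55 ± 0.09 (adjusted p = 0.00569). MT1G, a low gene, had 15.4 and 31.4 at 40 min and 5.13 and 24.4 at 0 min in shLAD1 cells, against 8.73 and 17.5 at 40 min and 34.2 and 105 at 0 min in scramble cells. It fell by 2.18 on the log2 scale in scramble cells, with 0.89 in shLAD1 cells (adjusted p = 0.115), and the response difference was 3.07 ± 0.43 (adjusted p = 0.00129). Leaving out scramble 0 min replicate 2 ended the MT1G call (2.78, adjusted p = 0.0718), and MT1X was called in 4 of the 8 fits that leave out a library.

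MT2A, a widely expressed metallothionein, had 1020.4 and 1555 normalized counts at 40 min and 792 and 1315 at 0 min in shLAD1 cells. In scramble cells it had 588 and 403 at 40 min and 941 and 1034 at 0 min. Both shLAD1 libraries at 40 min were above both scramble libraries, while the groups overlapped at 0 min. The response difference of MT2A was 1.32 ± 0.22, not called by limma (adjusted p = 0.464) and called by paired edgeR at 1.28 (adjusted p = 1.08e-05). MT1E likewise was called by edgeR at 1.79 (adjusted p = 0.00891) and not by limma (adjusted p = 0.108), with 124 and 76.5 at 40 min in shLAD1 cells and 75.4 and 10.0 in scramble cells. Of 15 metallothionein symbols 6 passed the filter on low values, and all 6 had a response difference above 0 in both prefixes, as 27% of all genes did. The family was chosen after its values were seen, and its members are close copies among which reads may be split, so the single genes are uncertain.

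The promoters of MT1X (GRCh38.p14 chr16:56682220-56682469, plus strand) and MT2A (chr16:56608334-56608583, plus strand) are shown for their metal response cores, TGCGCNC and TGCACNC on either strand, in capitals. In MT2A the AP-1 motif TGANTCA is in capitals too, 104 bases before the start.
MT1X: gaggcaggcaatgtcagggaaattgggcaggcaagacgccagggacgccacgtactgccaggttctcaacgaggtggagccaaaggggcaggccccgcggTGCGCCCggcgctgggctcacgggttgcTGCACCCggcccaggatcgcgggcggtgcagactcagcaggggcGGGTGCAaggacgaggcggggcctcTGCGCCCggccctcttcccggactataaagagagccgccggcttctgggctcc
MT2A: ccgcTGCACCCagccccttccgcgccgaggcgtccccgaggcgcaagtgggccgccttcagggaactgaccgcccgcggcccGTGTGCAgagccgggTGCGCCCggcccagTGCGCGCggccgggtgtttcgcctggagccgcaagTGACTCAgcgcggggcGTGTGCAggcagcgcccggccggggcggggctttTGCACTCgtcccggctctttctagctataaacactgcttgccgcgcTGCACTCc
MT1X held 2 copies of TGCGCNC and 2 of TGCACNC, and MT2A 2 and 5. Such cores also stood before called genes of other families: CSRP1 held 3 of TGCGCNC and 1 of TGCACNC, and ALYREF held 3 of TGCGCNC. Of all promoters of this length 16.8% hold TGCGCNC and 9.87% TGCACNC. No metal was varied here and no factor was mapped.

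**Figure D2:**
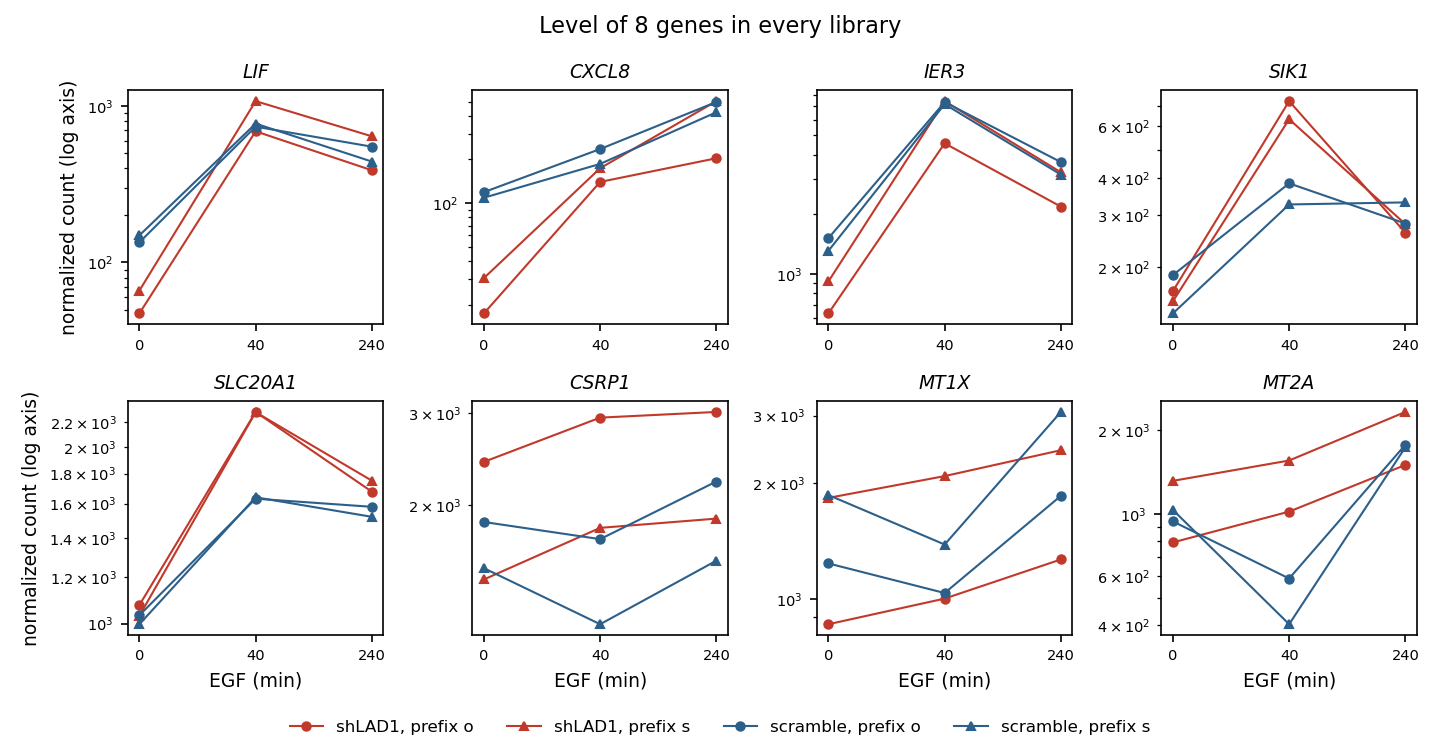
Normalized counts (log axes, a range for each panel) of 8 genes against minutes of EGF in all 12 libraries, shLAD1 in red and scramble in blue, circles for prefix o and triangles for prefix s. LIF, CXCL8 and IER3 begin lower in shLAD1 cells, SIK1 and SLC20A1 begin close together and part at 40 min, and MT1X and MT2A dip at 40 min in scramble cells only.

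The response difference is the shLAD1 minus scramble difference at 40 min less that at 0 min, and these 2 terms were set side by side. The 11 genes were chosen by the response difference, and the same 0 min libraries enter both it and the 0 min term. The split therefore describes the genes and cannot show whether the starved level accounts for their calls. The 0 min difference was the larger in size for LIF, CXCL8, IER3, MAFF, MT1G and LPIN1. For LIF the differences were 0.19 at 40 min and -1.33 at 0 min, for IER3 -0.32 and -0.89, for MAFF 0.28 and -0.54, and for MT1G 0.78 and -2.29; those of CXCL8 and LPIN1 are given above. MT1X was split evenly, with 0.27 and -0.27. The 40 min difference was the larger for SIK1 (0.94 against -0.02), CSRP1 (0.69 against 0.16), SLC20A1 (0.49 against 0.05) and ALYREF (-0.45 against 0.07). Tested on its own, the starved level was called different for 2 of the 11, CXCL8 and LPIN1, where 1.56% of all genes were, and for 5 with the replicate number as a block (11.5% of all genes). The 40 min level was called for 3, SIK1, LPIN1 and SLC20A1 (1.65% of all genes), and for 5 with that block (11.3%).

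The amount of RNA added, on the linear scale, gave another order than the fold change. LIF gained 827 ± 260.2 normalized counts in shLAD1 cells and 614 ± 13.7 in scramble cells (SD, n = 2), so a 1.35 times larger gain stood beside the 1.52 larger log2 change. CXCL8 gained 133 ± 14.8 and 96.9 ± 27.8, a ratio of 1.37, and MAFF 865 ± 7.22 and 679 ± 78.2, a ratio of 1.27, in shLAD1 and in scramble cells. IER3 gained 5231 ± 1841 in shLAD1 cells and 5862 ± 28.6 in scramble cells, a ratio of 0.892 with overlapping values. By contrast SIK1 gained 522 ± 58.9 against 192 ± 6.85, a ratio of 2.73, and SLC20A1 1239 ± 29.5 against 621 ± 31.7, a ratio of 1.995. The gains of the 2 shRNAs did not overlap for 10 of the 11 genes. The share was 35.1% of all genes tested and 38.2% of the 144 genes that rose early. The 11 were chosen by the response difference in these same libraries, which favours such non-overlap, so their count is a description only.

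**Figure D3:**
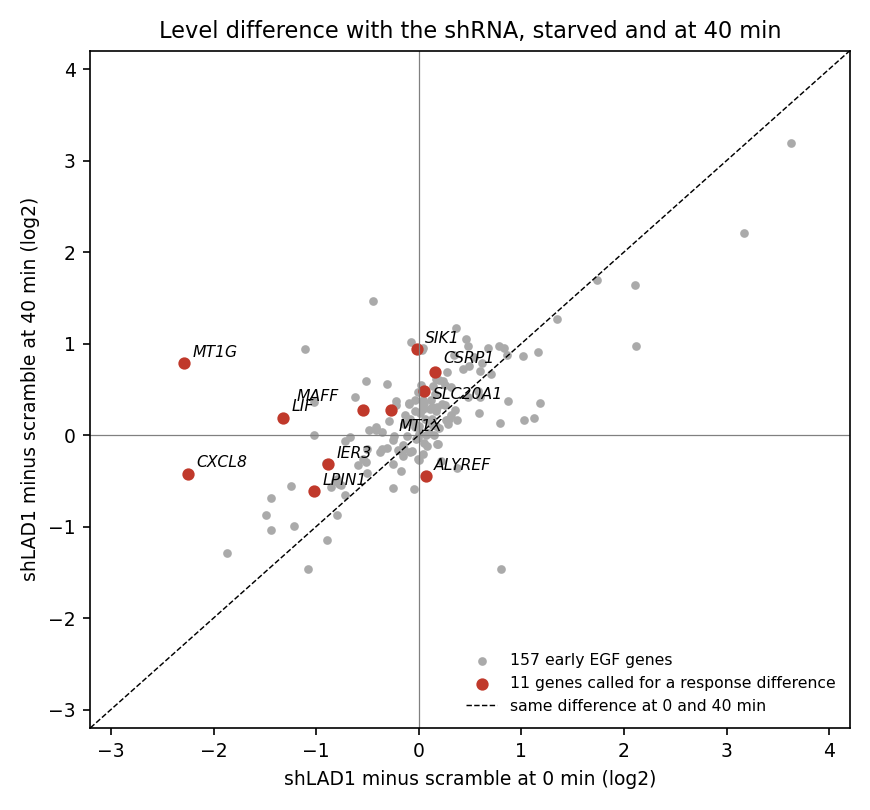
The shLAD1 minus scramble level difference at 40 min (vertical) against that at 0 min (horizontal), both in log2, for the 157 early EGF genes (grey) and the 11 genes called for a response difference (red). Points above the dashed line of equal differences have a response difference above 0. CXCL8, LIF and MT1G lie far left, and SIK1 and SLC20A1 lie above the line near 0 on the horizontal axis.

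The wider early response was described with 157 early EGF genes, which were called for the mean 40 min change of both shRNAs (1131 genes, 8.11%) and changed by at least 1 on the log2 scale, 144 up and 13 down. This choice uses the mean of the responses and not their difference. The 144 raised genes had a median change of 1.75 in shLAD1 cells and 1.50 in scramble cells. Their median response difference was 0.19, beside 0.0052 for all genes tested, but it was -0.0029 in prefix o and 0.35 in prefix s. In prefix s 111 of the 144 had the larger change in shLAD1 cells, and in prefix o 72. The response difference was above 0 in both prefixes for 57 (39.6%) and below 0 in both for 18 (12.5%), beside 27% and 24.4% of all genes. The median level difference of the raised genes was 0.17 at 40 min and -0.0074 at 0 min. The 13 lowered genes had a median response difference of -0.20.

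The starved difference of a gene in one prefix was then set beside its response difference in the other, which share no library. Over the 144 raised genes the slope was -0.095 (r = -0.13) for prefix s on the starved difference of prefix o, and -0.053 (r = -0.066) the other way. Over all 13950 genes the slopes were 0.0048 and -0.021. Within one prefix, where the same 0 min libraries enter both measures with opposite signs, the slopes over the raised genes were -0.40 and -0.57. Raised genes at least 0.5 lower at 0 min in shLAD1 cells of prefix o had a median response difference of 0.53 in prefix s (40 genes), those within 0.5 had 0.33 (83 genes), and those at least 0.5 higher had 0.18 (21 genes). With the prefixes exchanged the medians were 0.026 (23 genes), -0.024 (87 genes) and 0.019 (34 genes). The starved differences themselves correlated between prefixes with r = 0.52 over all genes and r = 0.35 over the 144 raised genes. For the response differences r was 0.019 and 0.062. Spread of the starved difference between prefixes draws slopes across prefixes toward 0, so small slopes cannot show whether the starved level matters. These are descriptions across genes, which are not independent replicates and share libraries and depth.

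**Figure D4:**
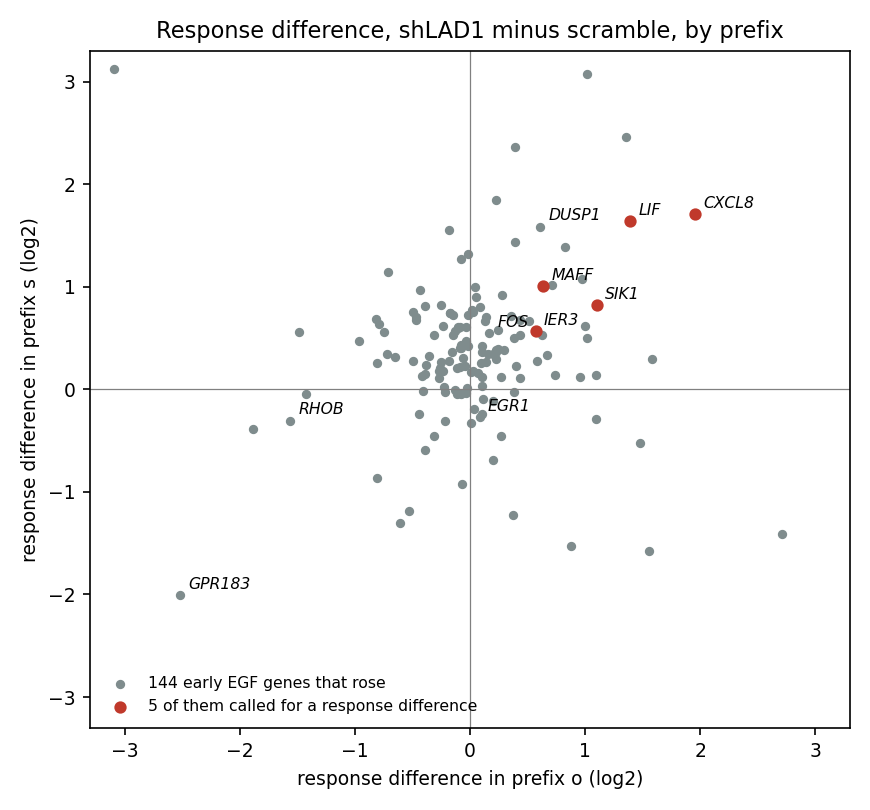
The response difference (shLAD1 minus scramble, log2) in prefix s against that in prefix o for the 144 early EGF genes that rose, with the 5 called in red. The points spread around 0 on the horizontal axis and lie mostly above 0 on the vertical axis, with medians of -0.0029 and 0.35, and the 5 called genes lie above 0 on both.

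Of 23 tested upstream genes, the ERBB receptors and the ERK pathway members, 0 were called for a response difference, beside 0.0789% of all genes. With a share this low, 0 calls in a short list says little. Above 0 in both prefixes were 8 and below 0 were 3, beside 27% and 24.4% of all genes, and their median was 0.03. Their lowest unadjusted p-values belonged to the kinases MAP2K2 (-0.35) and BRAF (-0.34), and EGFR had -0.04. Of 7 EGF family ligands 4 rose under each shRNA, where 4.02% of all genes rose in shLAD1 cells and 3.18% in scramble cells. Of these ligands 0 were called for a response difference, with a median of 0.17. Amphiregulin, AREG, rose by 2.39 in shLAD1 cells and by 1.58 in scramble cells, with a response difference of 0.81 ± 0.54 (adjusted p = 1). The EGF gene itself had 0.59 in prefix o and 0.58 in prefix s (adjusted p = 0.759).

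Immediate early transcription factors responded under both shRNAs. Of 23 tested, 22 rose in shLAD1 cells and 23 in scramble cells, where 4.02% and 3.18% of all genes rose. MAFF was called for a response difference, as were 0.0789% of all genes. Above 0 in both prefixes were 11 and below 0 were 3, beside 27% and 24.4% of all genes. Of the raised early genes, the nearer background for this list, the shares were 39.6% and 12.5%. The median was 0.27, with 0.10 in prefix o and 0.22 in prefix s. FOS, an AP-1 subunit, had 15050 and 16135 normalized counts at 40 min in shLAD1 cells against 13615 and 13149 in scramble cells, and its response difference of 0.36 ± 0.14 was not called (adjusted p = 1). EGR1, a zinc finger factor, had 31851 and 37098 at 40 min in shLAD1 cells against 30475 and 28487 in scramble cells, with a response difference of -0.09 ± 0.48. JUND, the AP-1 subunit, had 3313 and 3335 at 40 min and 3386 and 2552 at 0 min in shLAD1 cells, and 2754 and 2678 at 40 min and 1729.7 and 1734 at 0 min in scramble cells. It rose by 0.65 in scramble cells and was called higher at 0 min in shLAD1 cells, by 0.76 (adjusted p = 0.0232). Its response difference was -0.47 ± 0.10, called by edgeR (adjusted p = 0.0207) and not by limma (adjusted p = 0.26).

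Among 24 other immediate early genes 19 rose in shLAD1 cells and 17 in scramble cells, where 4.02% and 3.18% of all genes rose. IER3 and SIK1 were called for a response difference, as were 0.0789% of all genes. Above 0 in both prefixes were 15 and below 0 were 2, with a median of 0.24 (0.08 in prefix o and 0.35 in prefix s). The shares were 27% and 24.4% of all genes, and 39.6% and 12.5% of the raised early genes. Among 21 feedback inhibitors 11 rose in shLAD1 cells and 10 in scramble cells, and 0 were called for a response difference. Their median was 0.13, with -0.10 in prefix o and 0.18 in prefix s. DUSP1, a phosphatase of MAP kinases, had 596 and 523 normalized counts at 40 min and 67.8 and 38.7 at 0 min in shLAD1 cells. In scramble cells it had 364 and 207 at 40 min and 63.1 and 46.3 at 0 min. The groups overlapped at 0 min and not at 40 min, yet the response difference of 1.10 ± 0.24 was 0.61 in prefix o and 1.58 in prefix s and was not called (adjusted p = 0.147). It was called in the fit of the 8 libraries at 0 and 40 min alone (1.10, adjusted p = 0.00367) and without shLAD1 0 min replicate 1 (1.46, adjusted p = 0.0198). DUSP2, another such phosphatase, had 0.59 (adjusted p = 0.895).

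Of 19 cytokine and NF-kB genes 6 rose and 1 fell in shLAD1 cells, and 5 rose and 1 fell in scramble cells. Of all genes 4.02% rose and 0.753% fell in shLAD1 cells, and 3.18% rose and 0.616% fell in scramble cells. LIF and CXCL8 were called for a response difference, as were 0.0789% of all genes. In the cytokine list 11 were above 0 in both prefixes and 4 below, beside 27% and 24.4% of all genes. The median was 0.19, with 0.07 in prefix o and 0.22 in prefix s. The median level difference of that list was -0.26 at 40 min and -0.67 at 0 min. Cornified envelope and epidermal genes had the reverse starting point, with a median difference of 1.46 at 40 min and 1.55 at 0 min. Of 20 tested 0 were called for a response difference. Above 0 in both prefixes were 0 and below 0 were 8, beside the same shares of all genes. Among the 8 was SPRR1B, a cornified envelope precursor, at -0.95 (adjusted p = 1). Targets of SRF and MRTF (16 tested, median 0.02), LAD1 with filamins and actin regulators (23 tested, median 0.02) and stress response genes (18 tested, median -0.02) had 0 called each. The median of the SRF and MRTF targets was -0.13 in prefix o and 0.13 in prefix s. The SRF target FHL2 had 0.22, the filamin FLNA 0.03, the actin-linked protein EZR 0.13 and the heat shock cofactor DNAJB1 0.12. The luminal (10 tested, median 0.15) and basal markers (13 tested, median -0.01) had 0 called. Summed luminal markers lay between 65860.0 and 67550 normalized counts in shLAD1 cells against 52910 and 54810 in scramble cells at 40 min, and between 53750 and 57750 against 47410 and 48240 at 0 min, and their part in the results was not tested.

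Several early EGF genes had large but uncalled differences, most at low counts. The symbol MIR221 had 7.72 and 17.8 normalized counts at 40 min and 1.03 and 0 at 0 min in shLAD1 cells, against 5.55 and 5.84 at 40 min and 2.07 and 2.06 at 0 min in scramble cells. NOG, the BMP antagonist noggin, had 58.9 and 25.1 at 40 min and 19.5 and 3.05 at 0 min in shLAD1 cells, against 33.3 and 5.01 at 40 min and 29.0 and 4.11 at 0 min in scramble cells. NOG was higher at 40 min in every population, by more in shLAD1 cells, with 1.90 ± 0.44 (adjusted p = 0.173). On the lower side GPR183, an oxysterol receptor, had 2.90 and 16.8 at 40 min and 1.03 and 2.04 at 0 min in shLAD1 cells, against 21.4 and 22.5 at 40 min and 1.04 and 0 at 0 min in scramble cells. RHOB, a small GTPase, was not a low gene and had 984 and 749.2 at 40 min and 656 and 215 at 0 min in shLAD1 cells, against 950.3 and 599.5 at 40 min and 213 and 139 at 0 min in scramble cells, and a response difference of -1.57 in prefix o and -0.30 in prefix s. Over both it was -0.94 (adjusted p = 1), and without shLAD1 40 min replicate 2 it was called, at -1.54 (adjusted p = 4.98e-05). NUAK1 and ARC on the higher side, and IL1RL1, TCTEX1D4 and ADAMTSL4-AS1 on the lower side, reached at most 53.4 normalized counts in the 8 libraries and were not called. At 0 min ARC was at 0 in both shLAD1 libraries and in the scramble library of prefix s, and IL1RL1 in both scramble libraries. MIR221 and NUAK1 were at 0 in the shLAD1 0 min library of prefix s, and GPR183 in the scramble 0 min library of prefix s. No fold is given for any of these genes. Response differences over 1 in size were found for 11 of the 157 early genes (7.01%), beside 1.69% of all genes.

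At 240 min the same subtraction called 27 genes (0.194%). It uses the same 0 min libraries, so it is no separate evidence on the starved level. LIF had a 240 min response difference of 1.34 (adjusted p = 2.81e-05), CXCL8 1.74 (adjusted p = 0.0029), IER3 0.53 (adjusted p = 0.000896) and MAFF 0.82 (adjusted p = 0.027). The level differences of these genes at 240 min were 0.02 for LIF, -0.51 for CXCL8, -0.35 for IER3 and 0.27 for MAFF. SIK1, called higher at 40 min, had a level difference of -0.17 at 240 min, and SLC20A1 had 0.14. MT1X and MT1G had -0.44 and -1.25 at 240 min.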

How the data were processed

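RNA of 12 HCC70 libraries was compared through 1 deposited table of 26365 gene symbols. Per the submitters' processing notes, STAR, DESeq2 and the build hg19 were used; no version, counting tool, annotation or strand setting is given in the sources used here. The deposited signal columns are read counts scaled by the authors with 1 factor per library: division by the worth of a single read gave whole numbers to within 0.001 for 100% of values, and 12428618 to 16721013 reads per library. The table's log2 fold changes, scores and p-values from the authors' own comparison were not used here.

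A gene was tested where 2 or more libraries reached 10 normalized counts, which left 13950 genes, fitted with limma-trend (limma 3.58.1, R 4.3.3, robust) on log2(normalized count + 1); this scale understates the changes of low genes. Its terms were a level for each of 4 populations (shRNA by prefix) and the changes at 40 and 240 min for each shRNA, over all 12 libraries. This left 4 residual degrees of freedom, and sharing the spread across genes brought the median total to 23. Level differences between shRNAs used a mean per group. Alternatives were edgeR 4.0.16 and DESeq2 1.42.0 on recovered reads, other scalings, pseudocounts and filters, no pairing, and leaving out each library. Replicates of a group differed by more than counting noise. Replicate numbers 1 and 2 occur in every group, and deviations from group means correlated at 0.645 to 0.734 between groups of the same shRNA and at 0.247 to 0.307 between shRNAs, so the numbers pair the samples. The fits were tested on simulated data with known changes.

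The genes and the 14 gene lists were chosen with earlier results of these data known. Named were all genes called for the response difference, up to 6 early EGF genes with the largest differences each way that had the same sign in both prefixes, up to 2 list members with the smallest p, and LAD1, EGFR, FLNA, LIF, CXCL8, IER3, FOS and EGR1; not every gene this rule takes is reported here. Metallothioneins, paralogues and other genes outside this rule were chosen after their values were seen.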

Additional observations from a re-analysis of the deposited data

Results flagged for a closer look

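A difference between the shRNAs in the 40 min change, by a test of the difference itself (limma-trend, each change within a prefix), was found for 11 genes. The values, shLAD1 minus scramble on the log2 scale, were 3.07 for MT1G, 1.83 for CXCL8, 1.52 for LIF, 0.96 for SIK1, 0.82 for MAFF, 0.57 for IER3, 0.55 for MT1X, 0.54 for CSRP1, 0.43 for SLC20A1, 0.41 for LPIN1 and -0.52 for ALYREF. Each had the same sign in both prefixes, which the choice of the genes by these same values favours.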

How the results depend on the processing

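The pairing decided the calls. With no replicate block 0 genes were called for the response difference, 145 for the 40 min change in shLAD1 cells and 119 in scramble cells; with the replicate block these were 0, 274 and 202, and level differences were called for 1578 genes at 40 min and 1600 at 0 min. With neither was any of the 11 called genes or any of the 40 named genes called. edgeR without a block gave 0 too, paired edgeR 21, and the 8 libraries at 0 and 40 min alone 27. Leaving out a library gave 3 to 42 response differences: 3 without scramble 0 min replicate 2, 5 without scramble 40 min replicate 2 and 42 without shLAD1 40 min replicate 2. Over those fits 3 to 13 named genes were called, the 40 min change was called for 381 to 606 genes in shLAD1 cells and 280 to 545 in scramble cells, level differences for 2 to 172 genes at 40 min and 4 to 208 at 0 min, and the early genes' median response difference was 0.0837 to 0.243. The slope on the starved difference was -0.0171 with a filter at 50 and -0.0208 with the prefixes exchanged, beside 0.0048. LIF and IER3 kept their calls in 18 of 21 alternatives. The 11 called genes kept their sign in every alternative run, and of 831 values over 21 alternatives 10 changed sign, all of uncalled genes: IL1RL1 was 0.24 with a pseudocount of 5, and with 1 library left out the lowest and highest values were -0.0397 and 0.1045 for FLNA, -0.5687 and 0.379 for EGR1, -0.1506 and 0.08 for EGFR and -1.777 and 0.0602 for ADAMTSL4-AS1. With reads thinned to the lowest library total, chosen after the depths were seen, 11 genes were called. The cause of these changes was not tested.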

Other observations

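A few sterol genes were chosen after their values were seen and are given as values, and none was called for a response difference. HMGCS1, which makes HMG-CoA for cholesterol synthesis, had 3608 and 5050.3 normalized counts at 40 min and 2456 and 3889 at 0 min in shLAD1 cells, against 4218 and 5268 at 40 min and 3814 and 4958 at 0 min in scramble cells. It rose by 0.47 in shLAD1 cells and changed by 0.12 in scramble cells, which was not called, and the response difference of 0.35 was not called either (limma adjusted p = 0.103). Response differences in prefix o and prefix s were 0.26 and 0.27 for the sterol demethylase CYP51A1 (adjusted p = 0.277), 0.28 and 0.26 for the acetyl-CoA synthetase ACSS2 (adjusted p = 0.307) and 0.28 and 0.25 for the sterol sensor INSIG1 (adjusted p = 0.895). INSIG1 rose under both shRNAs, by 0.67 in shLAD1 cells and by 0.41 in scramble cells.

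Paired edgeR called 11 genes that limma did not, chosen after their values were seen. Besides MT2A, MT1E and JUND they were CSNK1E (-1.67), FOXD1 (-1.45), ZFPM1 (-0.69), RNA45S5 (-0.58), PPP1R14B (-0.56), LINC01578 (-0.56), EEF1A2 (-0.54) and UBALD2 (-0.47). RNA45S5, the ribosomal RNA precursor, took 0.211% and 0.25% of reads at 40 min and 0.262% and 0.342% at 0 min in shLAD1 cells, against 0.282% and 0.302% at 40 min and 0.284% and 0.23% at 0 min in scramble cells. The part of ribosomal RNA carry-over in the other values was not tested.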
